A study of Saccharomyces cerevisiae with 60 samples.

Results

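Fkh1-FLAG was compared with its DNA-binding mutant, fkh1-dbm-FLAG, by ChIP-seq with an anti-FLAG antibody in unsynchronized budding yeast. The comparison used 6 of the 60 libraries of the series, 3 for each allele, chosen by genotype, antibody and culture as the labels give them and not by any measured value. Each library gives, for every successive 50 bp of the genome, how many reads overlap that window. The signal of a library is a moving median over 10 windows divided by the 20th percentile of that library, which the study takes as unenriched background, so that a signal is given in times background. The ratio of the Fkh1-FLAG signal to the fkh1-dbm-FLAG signal is called dbm-RN, for ratio normalization by the DNA-binding mutant. The series as a whole tests controls for ChIP-seq, and the mutant was made as a control that keeps the tag, the antibody and the endogenous promoter while the sequence-specific contact with DNA is lost.

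The Fkh1-FLAG libraries came from strain OAy1100, in which FKH1 at its own locus is fused to 3 FLAG epitopes and marked by TRP1. The fkh1-dbm-FLAG libraries came from strain MPy172, in which the same tagged and TRP1-marked gene carries 5 amino acid substitutions. MPy172 was made by transforming SSy161, a MATa W303 strain deleted for BAR1, and SSy161 itself served as the untagged strain for the anti-FLAG background. The labels give a single strain for each allele, so that a difference between the alleles cannot be told apart from any other difference between these strains. All cultures grew at 23 °C in YEPD to an OD of about 1.0 without α-factor and were crosslinked in 1% formaldehyde for 15 min. The study describes the ChIP as done in triplicate. Nothing in the sources used here says whether the 3 libraries of a group came from separate cultures. The p-values thus rest on the spread between these libraries, estimated in part across all bins, and that spread may be technical.

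Fkh1 is a forkhead transcription factor. Its winged-helix domain reads a short AT-rich sequence through a recognition helix that lies in the major groove. In budding yeast Fkh1 and its paralog Fkh2 bind upstream of genes transcribed in G2 and M phase, the CLB2 cluster, which encodes mitotic cyclins, mitotic exit kinases and bud-site proteins. Fkh1 also binds the recombination enhancer, which directs the choice of donor during mating-type switching in MATa cells, and a subset of replication origins that fire early. ChIP from unsynchronized cells averages all these stages, so a larger share of cells bound and stronger binding in fewer cells cannot be told apart.

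The sequences that define the contrast are the target and the changed helix. The study tested DNA binding of the mutant protein in vitro on a probe from the TEM1 promoter on chromosome XIII, shown because the same promoter is among the strongest loci in these libraries, with the forkhead core in capitals. The mutant allele was made with a primer to FKH1 on chromosome IX, shown with its 10 changed bases in capitals.
TEM1 EMSA probe: agcaaaaaagGTAAACAagaaaaggaa
FKH1-dbm mutagenic primer: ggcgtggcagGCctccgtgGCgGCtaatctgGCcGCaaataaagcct
The changed bases alter 5 codons to alanine, giving N349A, R352A, H353A, S356A and L357A, where positions are residues of Fkh1 counted from its initiator methionine.

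Summed window counts were 26711776, 26323739 and 27232409 in Fkh1-FLAG replicates 1 to 3, against 42565353, 26913088 and 33593448 in fkh1-dbm-FLAG replicates 1 to 3. The 20th percentile of the windows was 62.5 to 65.0 counts in Fkh1-FLAG, 62.5 to 108.5 counts in fkh1-dbm-FLAG and 79.0 to 101.5 counts in untagged anti-FLAG. Across bins of 500 bp, r of log2 counts was 0.932 to 0.937 within Fkh1-FLAG, 0.944 to 0.955 within fkh1-dbm-FLAG and 0.764 to 0.832 between them, where bins are not independent replicates. Single libraries stood far apart from their group at 2 bins, where the signals of a group spanned more than 1.5 on the log2 scale. In the bin at chrVII:568001-568500 the signal without the moving median was 0.0393, 1.30 and 0.0111 in Fkh1-FLAG, against 0.767, 0.834 and 0.912 in fkh1-dbm-FLAG, so that Fkh1-FLAG replicates 1 and 3 were almost empty where replicate 2 was not, and whether these libraries came from a single isolate was not tested. In the bin at chrIV:758501-759000, inside NUM1, it was 1.57, 0.482 and 1.73 in Fkh1-FLAG, against 1.87, 0.652 and 0.526 in fkh1-dbm-FLAG, so that libraries of both alleles fell into high and low ones. Neither bin was called. Fkh1-FLAG replicate 3 had the strongest signals, and it was the highest of the 3 in 365 of the 429 enriched bins described next.

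All called differences between the alleles were enrichments in Fkh1-FLAG. Of 24065 bins of 500 bp tested, 429 were enriched in Fkh1-FLAG over fkh1-dbm-FLAG, which is 1.78% of the bins tested, where a call needed both a log2 fold change of 1 or more and an adjusted p under 0.05 (edgeR quasi-likelihood test, Benjamini-Hochberg adjustment). No bin was depleted by the same criteria in edgeR or in DESeq2, and 0 bins had an unadjusted p below 0.05 in edgeR with a log2 fold change of -1 or less. Without Fkh1-FLAG replicate 2 edgeR called 445 bins enriched and 3 depleted, and those 3 were the bin on chromosome VII named above and its neighbours. The log2 fold change of the enriched bins ran between 1.00 and 4.21 with a median of 1.37, beside a median of -0.04 for all bins tested, and 52 bins reached 2 and 5 bins reached 3.

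In the enriched bins the median signal of the mutant was close to that of the untagged strain. The median signal of the 429 bins was 2.43, 2.47 and 2.79 times background in Fkh1-FLAG, against 1.01, 0.993 and 1.00 in fkh1-dbm-FLAG and 1.02, 0.985 and 0.989 in untagged anti-FLAG. Over all bins tested the median was 1.19 to 1.20 in Fkh1-FLAG, 1.20 to 1.21 in fkh1-dbm-FLAG and 1.18 to 1.21 in untagged anti-FLAG. All 3 Fkh1-FLAG libraries exceeded all 3 fkh1-dbm-FLAG libraries in each of the 429 bins, where 16.5% of all bins tested show this order at any size of change. The bins were called on these same libraries, so this order is no further evidence. The call also favours bins that are low in the mutant, so the median of the mutant there is no test either. At an adjusted p below 0.05 with no minimum on the fold change, 2721 bins were higher and 1667 lower in Fkh1-FLAG, and the lowest of these was -0.61 on the log2 scale. This split depends on the scaling of the libraries, since 62.0% of such bins were higher with the 20th percentile, 77.6% with TMM normalization, 74.5% with DESeq2 and 45.9% with summed counts.

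**Figure D1:**
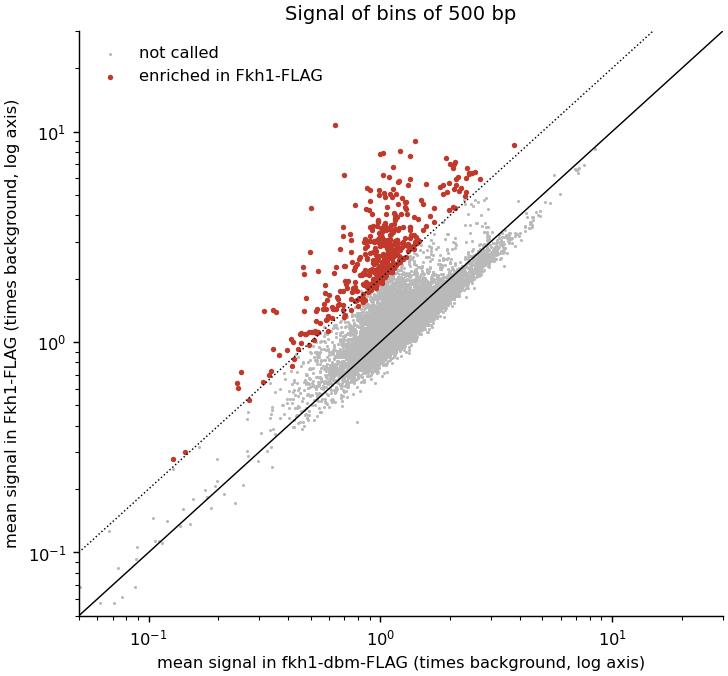
Mean signal of 24065 bins of 500 bp in Fkh1-FLAG (y axis) against fkh1-dbm-FLAG (x axis), both in times background on log axes, with the 429 enriched bins in red. The solid line marks equal signal and the dotted line a log2 difference of 1. Most enriched bins stand above a mutant signal near 1, the isolated grey point below the solid line is the bin of chromosome VII that was almost empty in Fkh1-FLAG replicates 1 and 3, and 50 bins lie outside the axes.

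Adjoining enriched bins formed 282 regions, of which 169 were a single bin, 88 were 2 bins, 18 were 3 bins, 5 were 4 bins and 2 were 5 bins long. Every chromosome held enriched bins, with 47 on chromosome XVI, 42 on chromosome IV, 35 on chromosome XII and 9 on chromosome I. The median dbm-RN of the regions was 2.49, from a median signal of 2.40 in Fkh1-FLAG and 0.961 in fkh1-dbm-FLAG. In 156 of the 282 regions the mean fkh1-dbm-FLAG signal was at or below 1, and in 26 it was above 1.5. Over the regions it ran from 0.0110 to 237, and the mean Fkh1-FLAG signal from 0.0271 to 599. An enriched region can thus lie far below background in Fkh1-FLAG itself. With a minimum of 300 counts in 3 or more libraries 424 bins were enriched.

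Most summits of the regions lay between divergent or tandem genes, and others lay within or behind genes. Gene names could be given to 275 regions, because right of ADE2 on chromosome XV the window counts of all 6 libraries matched those of untagged anti-FLAG replicate 1 best at a shift of 2000 bp, which leaves 7 regions there without names. The summit of the region, the window with the highest mean Fkh1-FLAG signal, lay between divergent genes in 87 regions (31.6%, against 8.82% of all windows sampled) and between tandem genes in 112 (40.7%, against 13.7%). It lay within a coding sequence in 44 regions (16.0%, against 72.8%), between convergent genes in 15 (5.45%, against 4.29%) and beyond the last gene of a chromosome in 17 (6.18%, against 0.35%). The summit was 0 to 500 bp before the nearest start codon in 133 regions (48.4%, against 18.5%), and its median distance from that codon was 315 bp, against 616 bp over all windows. These shares are a description with no test. The summit is the first of equal windows of a smoothed signal. The median Fkh1-FLAG profile was 2.67 there, 2.59 at 200 bp to its right and 2.10 at 200 bp to its left. Summits thus tend to lie left of the middle of a peak, and the places and distances carry this offset.

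Aligned on the summits of 253 regions, the median signal peaked in Fkh1-FLAG and dipped in the mutant and the untagged strain. At the summit it was 2.51, 2.52 and 2.97 in Fkh1-FLAG, against 0.954, 0.960 and 0.940 in fkh1-dbm-FLAG and 0.990, 0.941 and 0.924 in untagged anti-FLAG. At 2000 bp before the summit it was 1.26 to 1.30 in Fkh1-FLAG, 1.25 to 1.26 in fkh1-dbm-FLAG and 1.20 to 1.25 in untagged anti-FLAG. The alleles overlapped at that distance and were apart at the summit, where the mutant overlapped the untagged strain. The Fkh1-FLAG peak was 600 bp wide midway between its height and the level at the edges. The signal is a moving median over 10 windows of 50 bp, so this width cannot be told apart from the smoothing. It is no measure of the size of a binding site. The summit was chosen on the Fkh1-FLAG signal and the regions on the difference between the alleles, so neither the height of the peak nor the dip of the mutant is a test, and of the 3 groups only the untagged libraries had no part in the choice.

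**Figure D2:**
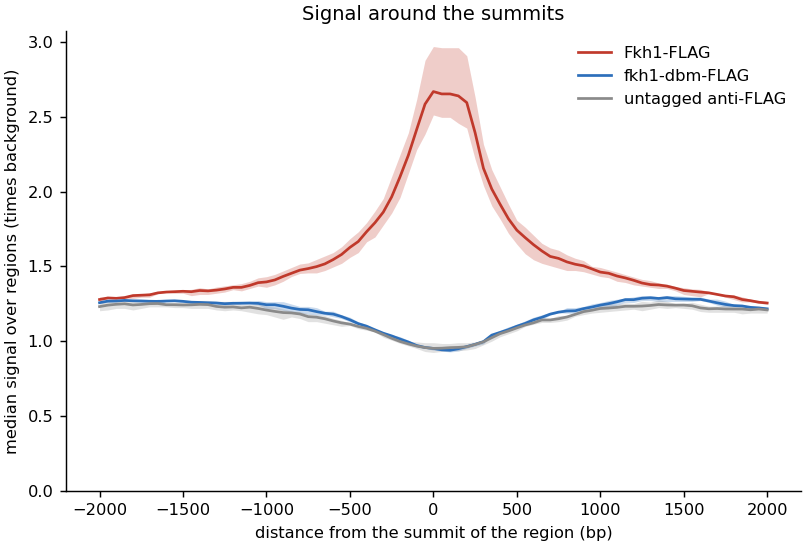
Median signal over 253 regions (y axis, times background) by distance from the summit (x axis, bp) in Fkh1-FLAG, fkh1-dbm-FLAG and untagged anti-FLAG. Lines are means of the 3 library medians and bands span the lowest to the highest library. Fkh1-FLAG reaches 2.67 at the summit, where fkh1-dbm-FLAG and untagged anti-FLAG both lie at 0.95.

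The strongest region was the recombination enhancer, at chrIII:28001-30500, which reached from the coding sequence of KAR4, a regulator of mating genes, towards RDT1. Its strongest bin, at chrIII:29001-29500 between these genes, had signals of 9.66, 9.32 and 13.3 times background in Fkh1-FLAG, against 0.745, 0.586 and 0.578 in fkh1-dbm-FLAG and 0.751, 0.633 and 0.589 in untagged anti-FLAG. The groups of the alleles were far apart, and the mutant overlapped the untagged strain. The log2 fold change was 4.21 ± 0.11 (SE, n = 3 each), with an adjusted p of 7.69e-43 in edgeR, and dbm-RN was 16.9. The exact permutation test over the 6 libraries gave p = 0.1 (two-sided), the smallest that 3 against 3 allows.

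The region of the next largest change, at chrXVI:328501-330000, overlapped IDI1, which encodes an isomerase of sterol and isoprenoid synthesis, and HOS3, which encodes a histone deacetylase. Its strongest bin, which lay between them, had signals of 5.23, 5.73 and 7.74 in Fkh1-FLAG, against 0.690, 0.742 and 0.654 in fkh1-dbm-FLAG. The log2 fold change was 3.46 ± 0.10 (SE, n = 3 each; edgeR adjusted p 3.34e-39). The promoter region of GLN1, glutamine synthetase, next to ARP7, a subunit of chromatin remodelers, followed with a log2 fold change of 3.26 at chrXVI:641001-642000. Signals there were 4.01, 3.90 and 5.06 in Fkh1-FLAG, against 0.486, 0.478 and 0.539 in fkh1-dbm-FLAG, so all 3 mutant libraries lay below their own background level there.

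The region at TEM1, whose promoter gave the probe shown above, was number 10. Its strongest bin, at chrXIII:146001-146500, had signals of 4.51, 4.94 and 6.47 in Fkh1-FLAG, against 0.829, 0.988 and 0.894 in fkh1-dbm-FLAG and 1.08, 0.954 and 0.820 in untagged anti-FLAG. The groups of the alleles did not overlap, and the log2 fold change was 2.67 ± 0.10 (SE, n = 3 each; edgeR adjusted p 2.14e-34). The bin is shared with the divergent gene RPS1B, which encodes a ribosomal protein, and the windows cannot say which of the genes a site serves.

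The other 16 regions among the 20 with the largest change lay at genes of varied function. Division and cell separation genes were FRK1, a protein kinase gene of the CLB2 cluster (2.80 on the log2 scale), DSE1 (2.44) and the interval of CHS7 and DSE2 (2.44), where DSE1 and DSE2 are expressed in daughter cells and help to separate them and CHS7 is needed to export a chitin synthase. Chromosome genes were HHF1 (2.64), a histone gene divergent from HHT1, and BNA4 and BRN1 (2.45), where BRN1 encodes a condensin subunit. The 2.64 came from another bin of its region than the one upstream of HHF1 towards HHT1, at chrII:255501-256000, which was at 1.76. Metabolic and membrane genes were ECM38 and EXG1 (2.82), where EXG1 is a cell-wall glucanase, BRP1 upstream of PMA1 (2.64), the plasma membrane proton pump, ARG56 and RNR1 (2.56), where RNR1 is a large subunit of ribonucleotide reductase, and ALG5 and NEW1 (2.53). The remaining regions were those of JJJ3 and YJR098C (3.12), of ERS1, EGO2 and FUB1 (2.89), of DIN7 and AKR1 (2.79), of YOL024W and IFM1 (2.57), of YPR195C (2.56), between YGR050C and FMP48 (2.55), and a region on chromosome XV without gene names (3.0).

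Signals of the strongest bins of these regions were high in absolute terms in some, as in that of DIN7 and AKR1 with 8.66, 8.44 and 9.95 in Fkh1-FLAG, against 1.35, 1.51 and 1.36 in fkh1-dbm-FLAG. In others a fold change of like size came from a low background, as between YGR050C and FMP48 with 1.94, 2.03 and 2.85 in Fkh1-FLAG, against 0.517, 0.514 and 0.367 in fkh1-dbm-FLAG.

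**Figure D3:**
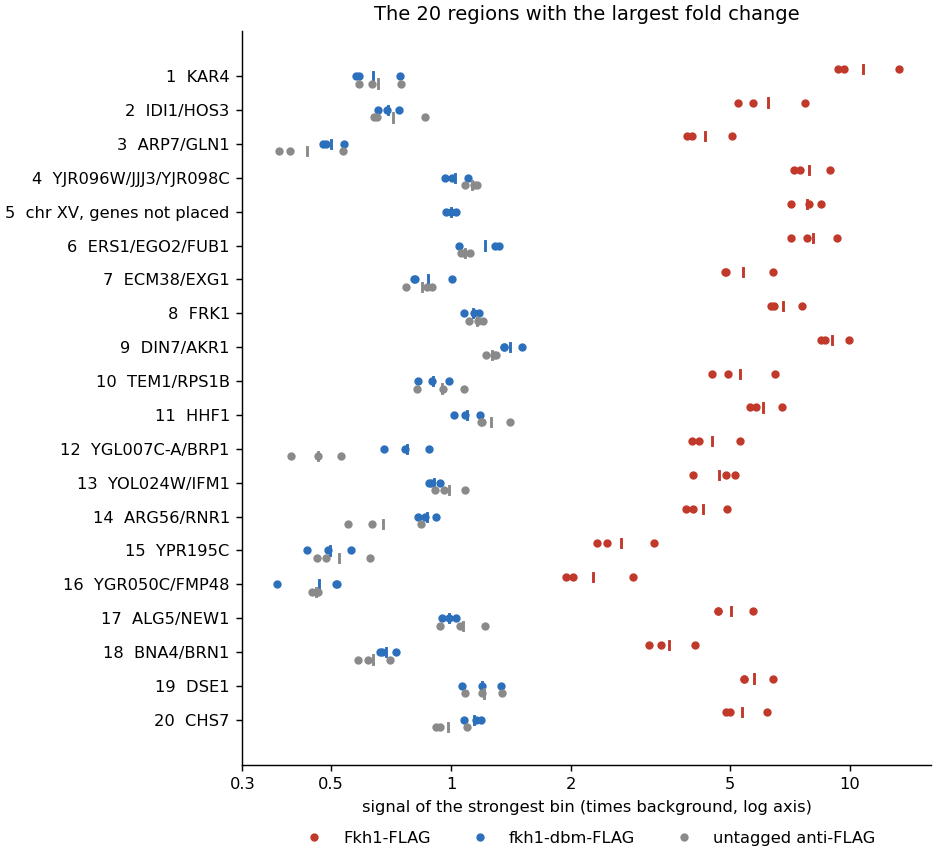
Signal of the strongest bin (x axis, times background, log axis) in the 20 regions with the largest log2 fold change, in the order Fkh1-FLAG, fkh1-dbm-FLAG and untagged anti-FLAG down each row. Points are libraries and bars are means of 3. Fkh1-FLAG lies to the right of both other groups in every row, from 1.94 between YGR050C and FMP48 to 13.3 at the recombination enhancer next to KAR4, and the region of chromosome XV without gene names has no untagged value.

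Genes of the CLB2 cluster were often enriched in their promoter bins. The promoter bin of a gene is the bin of 500 bp that holds the position 250 bp before its start codon. It can also hold the start codon and coding sequence, as at BUD3, so it does not place a site upstream. Of the 34 cluster genes 14 were enriched, with a median log2 fold change of 0.90. Over all protein-coding genes 234 of 5733 were enriched, which is 4.08%, with a median of 0.06, and these 234 genes share 196 bins. Where neighbours share a bin, as BUD3 and DCC1 or VAC17 and CHA1 do, the value belongs to both. The windows cannot say which of such genes a site serves. At an adjusted p below 0.05 with no minimum on the fold change, 25 of the 34 were higher and 0 lower in Fkh1-FLAG, beside 1236 higher (21.6%) and 141 lower (2.46%) of the 5733 protein-coding genes. The list, like all lists here, was chosen with earlier results of these data known, so counts and medians stand without a test of the list.

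The cyclin genes showed moderate signals. CLB2, the main mitotic B-type cyclin, had 1.72, 1.93 and 1.93 times background in Fkh1-FLAG, against 0.860, 0.842 and 0.957 in fkh1-dbm-FLAG and 1.07, 0.856 and 0.967 in untagged anti-FLAG. Its log2 fold change was 1.10 ± 0.10 (SE, n = 3 each; edgeR adjusted p 4.79e-15), and the groups of the alleles did not overlap. CLB1, which encodes a related cyclin, had 2.29, 2.58 and 2.78 in Fkh1-FLAG, against 0.876, 0.653 and 0.919 in fkh1-dbm-FLAG, a log2 fold change of 1.69.

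Among mitotic exit genes, TEM1, the GTPase at the head of the mitotic exit network, was given above. DBF2, a kinase of that network, had 2.55, 2.19 and 2.82 in Fkh1-FLAG, against 1.01, 1.09 and 1.00 in fkh1-dbm-FLAG (log2 fold change 1.45). SPO12, an activator of early anaphase release of Cdc14, was at 1.19. MOB1, the partner of Dbf2, was higher at a log2 fold change of 0.70 and was not called.

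Genes of bud sites, organelle inheritance and the spindle made up most of the others. BUD3, which marks the axial bud site, had 3.52, 3.79 and 4.70 in Fkh1-FLAG, against 1.15, 1.22 and 1.12 in fkh1-dbm-FLAG (log2 fold change 1.85). BUD8 was at 1.04, while BUD4 was at 0.97 and AIM20 just under the minimum of 1, and neither of these was called. VAC17, the vacuole adaptor of a myosin motor, was at 1.67 and MMR1, its mitochondrial counterpart, at 1.10. The kinesin gene KIP2 was at 1.65, ASE1, which bundles microtubules of the spindle midzone, at 1.58, and ALK1, a haspin-like kinase gene, at 1.20. SWI5, which encodes an activator of genes expressed at the end of mitosis, was higher at 0.79 without being called.

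Other cluster genes had no difference past the threshold. CDC5, the polo kinase gene, had 1.22, 1.09 and 1.17 in Fkh1-FLAG, against 1.13, 1.22 and 1.09 in fkh1-dbm-FLAG, a log2 fold change of 0.00 ± 0.10 (SE, n = 3 each; edgeR adjusted p 0.982). KIN3 was at -0.13, NUM1 at -0.05, IRC8 and TPO3 at 0.16, HOF1 at 0.18, MYO1 at 0.20, and NCE102 and RAX2 at 0.23, all with an adjusted p of at least 0.0998 in edgeR, and the groups overlapped in KIN3, NUM1, IRC8 and MYO1. The signal of all of these in Fkh1-FLAG was between 0.755 and 1.38 times background. CDC20, the activator of the anaphase-promoting complex, at 0.91, PMP1 at 0.89, SRC1 at 0.74, IQG1 at 0.50, CHS2 at 0.47, HST3 at 0.41 and TPO2 at 0.33 were higher in Fkh1-FLAG at an adjusted p below 0.05 but under the minimum fold change.

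Cell separation and early G1 genes, expressed after the CLB2 cluster at the end of mitosis, held 5 enriched genes of 17 placed, beside 4.08% of all protein-coding genes, with a median of 0.54. DSE1 had 5.43, 5.42 and 6.40 in Fkh1-FLAG, against 1.20, 1.33 and 1.06 in fkh1-dbm-FLAG (log2 fold change 2.44). DSE2 was at 1.87, SCW11, which encodes a glucanase, at 1.6, AMN1, an antagonist of mitotic exit, at 1.47 and SUN4 at 1.24. The chitinase gene CTS1 was at 0.67 and SIC1, which encodes a Cdk inhibitor, at 0.08, and PCL9 had the lowest value of the list, -0.35, with an adjusted p of 0.0359 in edgeR. DSE3 could not be placed.

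Some genes of the spindle and of chromosome segregation outside the CLB2 cluster were also enriched. Of 61 such genes 14 were enriched, beside 4.08% of all protein-coding genes, with a median of 0.43, but the list was composed after the regions had been seen and its count is no independent evidence. Condensin was represented by BRN1 (2.45), YCG1 (1.73) and YCS4 (1.44), while SMC2 and SMC4, which encode its other subunits, were at 0.16 and 0.10. BRN1 had 3.13, 3.35 and 4.09 in Fkh1-FLAG, against 0.671, 0.730 and 0.663 in fkh1-dbm-FLAG. The groups were far apart, since all mutant values lay under 0.75 times background.

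The anaphase regulators were also among them. PDS1, the securin gene, was at 1.42, ESP1, the separase gene, at 1.37 and SGO1, the shugoshin gene, at 2.25. SGO1 had 5.33, 5.45 and 7.03 in Fkh1-FLAG, against 1.43, 1.19 and 1.39 in fkh1-dbm-FLAG. PDS5, a cohesin regulator, was at 1.44. Of the cohesin subunit genes SMC1 at 0.77 and MCD1 at 0.69 were higher in Fkh1-FLAG without being called, IRR1 was at 0.11, and SMC3 had the lowest value of the list, -0.26, with an adjusted p of 0.106 in edgeR. Motor genes were DYN1, the dynein heavy chain (2.03), KAR3 (1.07) and the genes of its light chains, VIK1 (2.21) and CIK1 (1.84). Kinetochore genes were NNF1 (1.92), SPC24 (1.35) and MTW1 (1.06). Bins are shared by PDS1 and MRX14, by ESP1 and TEL2, by KAR3 and RRP15, by CIK1 and VTI1, and by NNF1 and PXP2.

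Cell wall genes, in a list also composed after the regions had been seen, held 7 enriched of 33, beside 4.08% of all protein-coding genes, with a median of 0.31, and its count is likewise no independent evidence. GAS3, of a family of glucan-remodeling enzymes, had 5.0, 4.82 and 5.34 in Fkh1-FLAG, against 1.35, 1.08 and 1.09 in fkh1-dbm-FLAG (log2 fold change 2.19). EXG1 was at 1.83, GAS5 at 1.13, TIR3 at 1.11, SCW4 at 1.09, CIS3 at 1.08 and UTH1 at 1.07, and GSC2 had the lowest value, -0.22. The groups of the alleles did not overlap in any of the enriched genes, as in all enriched bins.

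Lists of other stages and functions held 1 to 3 enriched genes each, beside 4.08% of all protein-coding genes, and a share from a single gene is not a result about its list. SBF and MBF targets, expressed at G1/S, held 3 enriched of 26 with a median of 0.09, namely RNR1 (2.12), PLM2 (1.29) and CLN1 (1.06), and MSH6 was lowest at -0.26. Of 14 genes of the pre-replicative complex only ORC6 was enriched (1.01), in a bin shared with SET1, the median was 0.04, and MCM3 was lowest at -0.43. Of 12 mating genes only MFA2, an a-factor gene, was enriched (1.30), with AGA2 lowest at -0.20, and of 16 glycolysis genes only PFK2 (1.08), with PFK1 lowest at 0.04. HHF1 was the single enriched member of 8 core histone genes, at 1.76 in its promoter bin, with HTB1 lowest at 0.15, and the median of 0.45 was above those of the spindle and cell wall lists.

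Genes of forkhead and partner factors differed among themselves. FKH2, which encodes the paralog of Fkh1, had 1.37, 1.52 and 1.92 in Fkh1-FLAG, against 0.668, 0.718 and 0.583 in fkh1-dbm-FLAG (log2 fold change 1.44). FHL1, which encodes a forkhead-domain factor of ribosomal protein genes, was at 1.62. HCM1, the forkhead gene of S phase, was at -0.04 and MCM1, which encodes the partner of Fkh2, at -0.14. NDD1 could not be placed.

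**Figure D4:**
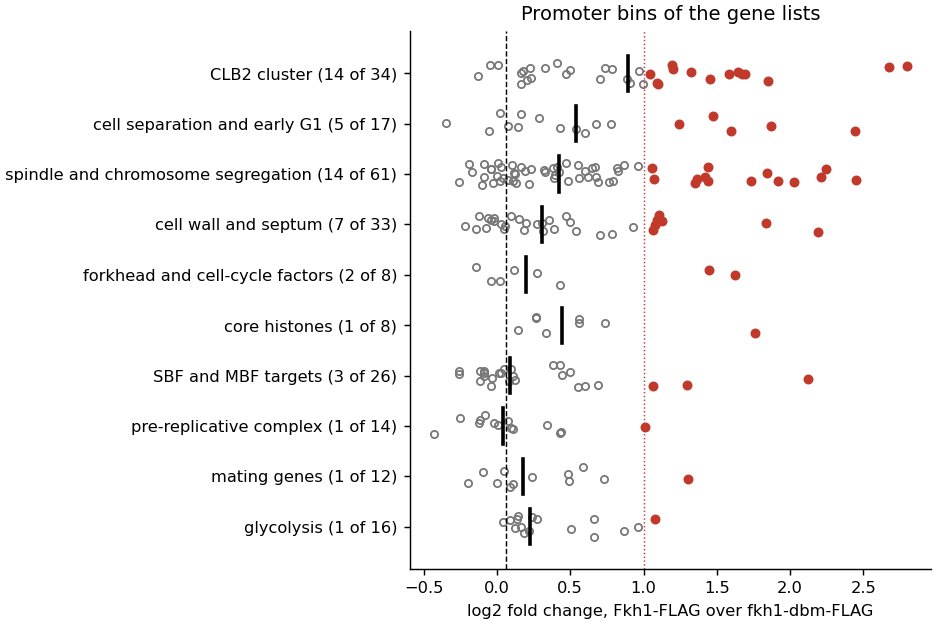
Log2 fold change, Fkh1-FLAG over fkh1-dbm-FLAG (x axis), of the promoter bin of every placed gene in 10 gene lists, with enriched genes filled and bars at the list medians. The dashed line is the median of 5733 protein-coding genes, 0.06, and the dotted line the minimum of 1. The CLB2 cluster, with 14 of 34 enriched, has the median farthest to the right, 0.90.

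Classes of gene that often give ChIP signal without specific binding were enriched no more often than the background. The share was 1.51% for tRNA genes and 3.79% for ribosomal protein genes, near the background shares given below, so these counts are no result about the classes. Of 265 tRNA genes 4 were enriched, beside 1.78% of all bins, with a median of -0.13. At an adjusted p below 0.05 with no minimum 31 tRNA genes were higher and 58 lower in Fkh1-FLAG, where 11.3% of all bins were higher and 6.93% lower. The median stayed below 0 with TMM normalization (-0.09) and with summed counts (-0.17), where the medians of all bins were -0.01 and -0.09. Of 70 snoRNA genes 0 were enriched, with a median of -0.05, where 7 were higher and 14 lower at an adjusted p below 0.05 in edgeR, between -0.47 at SNR42 and 0.69 at SNR33. Of 132 ribosomal protein genes 5 were enriched, beside 4.08% of all protein-coding genes, with a median of -0.01.

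Some of the enriched members of these classes lay in bins shared with genes outside the class. RPS1B shares the bin of TEM1 and RPL37B that of PLM2. RPS22A and RPL39, both ribosomal protein genes, are divergent with a common bin at 1.55. RPS4A was at 1.09, and RPS25A was lowest at -0.44. The enriched tRNA genes were YNCL0044W (2.03), which lies in the promoter bin of NUP2, SUF11 (1.59), whose neighbour is SGO1, YNCN0004W (1.44) and YNCK0011C (1.09), and YNCB0011C was lowest at -0.58. YNCL0044W had 4.24, 4.25 and 5.38 in Fkh1-FLAG, against 1.28, 1.28 and 1.26 in fkh1-dbm-FLAG and 1.28, 0.950 and 1.36 in untagged anti-FLAG. The Fkh1-FLAG signal of this shared bin was apart from both backgrounds.

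Chromosome ends and the rDNA held enriched bins whose reads come from repeats and cannot be assigned to a single copy. Within 5 kb of an end 34 of 308 bins tested were enriched, beside 1.78% of all bins, in 22 regions at 22 of the 32 ends, while the median of those 308 bins was 0.02. In the rDNA the bins at chrXII:459001-459500 and chrXII:468001-468500 were enriched, with log2 fold changes of 1.29 and 1.38. The higher signal of the pair was 609, 591 and 598 times background in Fkh1-FLAG, against 192, 275 and 242 in fkh1-dbm-FLAG and 100, 173 and 148 in untagged anti-FLAG. Values of this size count all copies of the repeat at once. Without the terminal 5 kb and the rDNA 393 bins were enriched.

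The mutant was set against the untagged strain to see what it kept. These values share the fkh1-dbm-FLAG libraries with the comparison above, so they are given side by side only, and the shifted part of chromosome XV was left out. Over the genome 28 of 23013 bins were enriched in fkh1-dbm-FLAG, which is 0.122%, and 74 were depleted, which is 0.322%. Of the 417 placed bins that were enriched in Fkh1-FLAG, 11 were also enriched in fkh1-dbm-FLAG over untagged anti-FLAG and 0 were depleted by the same edgeR criteria, with 57 higher and 15 lower at an adjusted p below 0.05. The median log2 fold change of fkh1-dbm-FLAG over untagged anti-FLAG was -0.01 in these 417 bins and -0.01 over all bins.

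Of those 11 bins 8 lay within 5 kb of a chromosome end. The others were at chrVI:5001-5500 next to COS4, at chrXIV:7001-7500 between YRF1-6 and COS1, and at chrIV:1159001-1159500 between the hexose transporter genes HXT7 and HXT6, a nearly identical pair. In the tRNA genes the median of fkh1-dbm-FLAG over untagged anti-FLAG was 0.26, with 120 higher and 2 lower at an adjusted p below 0.05 in edgeR. In the snoRNA genes it was -0.30, with 1 higher and 39 lower. Over all bins of this comparison 4.31% were higher and 6.63% lower in fkh1-dbm-FLAG, and over the promoter bins of protein-coding genes 3.24% were higher and 6.45% lower.

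The locus that was altered to make these strains showed no difference between the alleles past the threshold. The bin at the start codon of FKH1, at chrIX:102001-102500, holds the beginning of the coding sequence and the sequence before it. It had 1.68, 1.31 and 1.55 in Fkh1-FLAG, against 2.21, 1.14 and 1.12 in fkh1-dbm-FLAG and 0.980, 1.10 and 0.928 in untagged anti-FLAG. The groups of the alleles overlapped because fkh1-dbm-FLAG replicate 1 was highest, and the log2 fold change was 0.02 ± 0.12 (SE, n = 3 each; edgeR adjusted p 0.920). DESeq2 gave 0.06 with a wider SE of 0.34, so the edgeR SE understates how far apart the libraries lay in this bin. Leaving out fkh1-dbm-FLAG replicate 1 gave 0.43 (edgeR adjusted p 0.00427). Over the FKH1 coding sequence the mean signal without the moving median was 1.86, 1.55 and 1.51 in Fkh1-FLAG, against 2.94, 1.49 and 1.35 in fkh1-dbm-FLAG and 1.17, 1.21 and 1.27 in untagged anti-FLAG. All 6 tagged libraries were thus above the untagged ones in this mean over the coding sequence, but not in every part of the locus. In the 250 bp past the stop codon it was 1.15, 0.809 and 0.812 in Fkh1-FLAG and 1.71, 0.667 and 0.706 in fkh1-dbm-FLAG. The untagged libraries had 1.29, 1.10 and 1.14 there. In the 1000 bp before the start codon the mean was 1.24, 1.22 and 1.27 in Fkh1-FLAG, against 1.40, 1.03 and 1.11 in fkh1-dbm-FLAG and 1.10, 1.10 and 1.15 in untagged anti-FLAG. The window that holds the changed codons had 2.13, 1.80 and 1.68 in Fkh1-FLAG, against 3.34, 2.08 and 1.35 in fkh1-dbm-FLAG and 1.05, 1.27 and 1.49 in untagged anti-FLAG. Counts per window do not read the substitutions themselves. TRP1, the marker at the tagged gene in both strains, was at 0.25 in its own promoter bin, with an adjusted p of 0.116 in edgeR.

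The comparison most like this one used the MYC epitope, with Fkh1-MYC and fkh1-dbm-MYC expressed in strains MPy166 and MPy169 and 3 libraries each, none of them shared with the FLAG comparison. There 777 of 24067 bins were enriched in Fkh1-MYC over fkh1-dbm-MYC, which is 3.23%, and 0 were depleted. Of the 429 bins enriched with FLAG 410 were enriched with MYC, which is 95.6% of the FLAG bins and 52.8% of the MYC bins. The median log2 fold change of the 429 bins was 1.37 with FLAG and 1.77 with MYC, and it was larger with MYC in 374 of them. Of the 19 bins not called with MYC 11 lay within 5 kb of a chromosome end, and all 19 had a log2 fold change of 0.59 to 0.99 with MYC. Right of ADE2 on chromosome XV, where 12 of the 429 bins lie, positions with MYC were shifted by 150 to 200 bp more than with FLAG, and without that part 399 of 417 bins were enriched with MYC and 363 had the larger fold change there.

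The difference between the tags was tested as an interaction in an edgeR fit of all 12 libraries. The fold change was smaller with FLAG than with MYC in 28 of 24069 bins, which is 0.116%, by a log2 difference of -1 or less with an adjusted p under 0.05, and 26 of these remained without the part of chromosome XV right of ADE2. No bin had a larger fold change with FLAG by these criteria, and 0 had an unadjusted p below 0.05 with a log2 difference of 1 or more. Of the 429 enriched bins 180 had a smaller and 3 a larger fold change with FLAG at an adjusted p below 0.05 with no minimum, beside 470 smaller (1.95%) and 14 larger (0.0582%) of all 24069 bins, and their median difference was -0.40, beside -0.02 over all bins tested.

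The recombination enhancer, IDI1 and HOS3, FRK1, DSE1, DSE2 and EXG1 were among the loci of the 28 bins. At the recombination enhancer the log2 fold change was 4.21 with FLAG and 5.76 with MYC, a difference of -1.56. At TEM1 it was 2.67 with FLAG and 3.07 with MYC, a difference of -0.40 with an adjusted p of 0.108 in edgeR. At the bin of the FKH1 start codon the difference was -1.30, with a log2 fold change of 0.02 with FLAG and 1.32 with MYC. The antibody, the tag and the strain all change together between these comparisons and cannot be told apart.

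**Figure D5:**
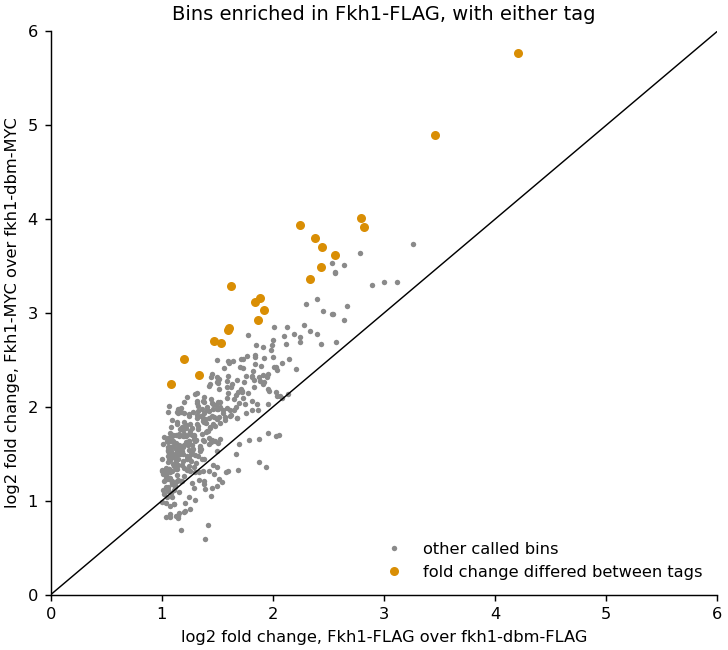
Log2 fold change with the MYC tag, Fkh1-MYC over fkh1-dbm-MYC (y axis), against that with the FLAG tag, Fkh1-FLAG over fkh1-dbm-FLAG (x axis), in the 429 bins enriched with FLAG. Orange points are the 22 bins whose fold change was smaller with FLAG by a log2 difference of at least 1, and the line marks equal values. In 374 bins the point lies above the line, and the recombination enhancer is at the far upper right.

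The same tag was also compared without the mutant, as Fkh1-FLAG (FLOP) over FLOP, where FLOP is a strain that expresses a FLAG-tagged bacterial LexA protein from a construct at ADE2. These 6 libraries are likewise separate. There 385 of 24067 bins were enriched, which is 1.6%, and 1 was depleted. Of the 429 bins enriched over the mutant 310 were enriched over FLOP, which is 72.3% of the bins of the mutant comparison and 80.5% of those of the FLOP comparison, and the median log2 fold change of the 429 bins there was 1.25. In all 3 comparisons 298 of the 429 bins were enriched, which is 69.5%.

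Among the 20 strongest regions that of YOL024W and IFM1 departed most from this. It had a log2 fold change of 2.57 over the mutant and of 2.69 with MYC, but of 0.08 over FLOP. Signals were 5.14, 4.04 and 4.89 in Fkh1-FLAG, against 0.882, 0.938 and 0.893 in fkh1-dbm-FLAG. They were 3.65, 3.69 and 4.45 in Fkh1-FLAG (FLOP), against 3.78, 3.85 and 3.33 in FLOP. The FLOP strain, with no FLAG on Fkh1, was thus as high there as the strain with tagged Fkh1. The region of ERS1, EGO2 and FUB1 also had a raised FLOP signal, of 2.27, 2.29 and 2.09, and its log2 fold change was 1.76 over FLOP, beside 2.89 over the mutant.

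Overlap with the origin recognition complex was described with libraries of Orc1-HA and HOP from cells held in G1 with α-factor, a use of these files chosen after the enriched bins had been seen. Orc1 is the large subunit of the complex that marks replication origins, and HOP is the matching strain with HA-tagged LexA. Positions right of TRP1 on chromosome IV, shifted by 1750 bp in these libraries, and right of ADE2 on chromosome XV were left out. There 776 of 20862 bins were enriched in Orc1-HA (HOP) over HOP, which is 3.72%. Of the 385 placed bins enriched in Fkh1-FLAG 114 were enriched for Orc1, which is 29.6% of them and 14.7% of the Orc1 bins. The median log2 fold change of Fkh1-FLAG over fkh1-dbm-FLAG in the 776 Orc1 bins was 0.21, beside -0.04 for all bins tested, and 340 of them were higher in Fkh1-FLAG at an adjusted p below 0.05 in edgeR, beside 2721 of the 24065 bins tested (11.3%).

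By region, 79 of 257 placed regions held an Orc1 bin, and 5 of the 18 placed among the 20 strongest did. Those 5 were the regions of JJJ3 and YJR098C, HHF1, BRP1, YOL024W and IFM1, and YPR195C. The recombination enhancer, IDI1 and HOS3, TEM1 and FRK1 were not among them. The 79 regions include regions at chromosome ends and in the rDNA, whose reads come from repeats and cannot be assigned to a single copy. A region of several bins can hold an Orc1 bin more easily than a single bin can. No share for other regions of like length was computed, so the counts by region stand without a background. The cultures of this comparison were in G1 and those of Fkh1-FLAG were not, so the shares set sites side by side and not states of the same cells.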

How the data were processed

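ChIP-seq libraries of unsynchronized yeast were used, 3 each of Fkh1-FLAG and fkh1-dbm-FLAG, beside 3 each of untagged anti-FLAG, Fkh1-MYC, fkh1-dbm-MYC, Fkh1-FLAG (FLOP) and FLOP, and G1 libraries of Orc1-HA (HOP) and HOP. The authors split paired-end reads by barcode (fastq-multx), mapped them (Bowtie2), dropped duplicates (SAMtools) and counted them (bedtools), and the deposited counts are raw reads overlapping each window of 50 bp. The same read is counted in each window it touches, so neighbouring windows share reads. The authors took the genome sequence from the Saccharomyces Genome Database, its build name is not given in the sources used here, positions are those of the files, and gene names come from the RefSeq R64 annotation.

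The signal was computed as in the report (moving median over 10 windows, 20th percentile). Tests used unsmoothed counts summed over bins of 500 bp, with library sizes set from the 20th percentile and a minimum of 10 counts in 3 or more libraries, in edgeR 4.0.16 (glmQLFit and glmQLFTest, Benjamini-Hochberg adjustment over all bins tested). The biological coefficient of variation was 0.0811. Each SE is the size of the log2 fold change divided by the square root of the F statistic of the edgeR test. That test draws on the spread in all bins, so an SE is not the spread of the 3 libraries in a single bin. The fit was also run on simulated counts with independent bins, 1 dispersion for all bins and increases only. That setting lacks bins where single libraries stand apart and neighbouring bins that share reads, so it is no check of these. Shifts of positions were measured by the lag of highest correlation of log2 window counts (pseudocount 1) with untagged anti-FLAG replicate 1. Exact permutation tests were two-sided. Other software was matplotlib 3.10.9, pandas 2.3.3, scipy 1.17.1 and numpy 2.4.6 under Python 3.11.15, and DESeq2 1.42.0 under R 4.3.3.

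Named loci are the 20 enriched regions with the largest log2 fold change and Fkh1-FLAG higher in every one of the 9 library pairs, the recombination enhancer, IDI1 and HOS3, TEM1, FKH1, TRP1, every CLB2 cluster gene, and of each other list the enriched members and the extreme members. The members and lists were chosen with earlier results of these data known, and the spindle and cell wall lists after the enriched regions of these libraries had been seen. A gene of the CLB2 cluster is counted but not reported by name here. Forkhead motif shares, single origins and centromeres were not analysed here. Alternatives were other scalings, DESeq2, other filters, bins and thresholds, all 12 libraries with either tag in 1 fit, a replicate block, and leaving out each library in turn.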

Additional observations from a re-analysis of the deposited data

Results flagged for a closer look

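The fold change between the alleles differed between the FLAG and the MYC tag, by an interaction test in edgeR over 12 libraries, in 28 bins and at the loci that follow, always with the smaller fold change for FLAG. Values are log2 differences, FLAG minus MYC. Among the 20 strongest regions they were -1.56 at the recombination enhancer next to KAR4, -1.43 at IDI1 and HOS3, -1.27 at DSE1, -1.22 at FRK1, -1.09 at ECM38 and EXG1, and -1.05 at CHS7. They were -0.88 at YPR195C, -0.87 at HHF1, -0.86 at ARG56 and RNR1, -0.85 at DIN7 and AKR1, -0.58 at BNA4 and BRN1, and -0.46 at ALG5 and NEW1.

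In promoter bins of the CLB2 cluster the difference was -0.90 at DBF2, -0.85 at ALK1, -0.81 at BUD3 and -0.70 at IQG1. It was -0.63 at ASE1, -0.60 at CLB2 and MMR1, -0.50 at SPO12, -0.48 at BUD4, -0.46 at CLB1 and -0.44 at KIP2.

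At the bin that holds the start codon of FKH1 the difference was -1.30. It was -0.89 without fkh1-dbm-FLAG replicate 1 and -1.11 without Fkh1-MYC replicate 1, the libraries with the highest signal over the FKH1 coding sequence in their groups. That signal, without the moving median, was 1.86, 1.55 and 1.51 in Fkh1-FLAG, 2.94, 1.49 and 1.35 in fkh1-dbm-FLAG, 3.65, 2.14 and 1.86 in Fkh1-MYC and 1.38, 1.53 and 1.42 in fkh1-dbm-MYC. The part of these libraries in the difference was not tested further.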

How the results depend on the processing

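The count of 429 enriched bins was 410 to 468 under the other scalings, tests, filters and fits, 393 with the rDNA and chromosome ends left out, and 386 to 468 when single libraries were left out, lowest without Fkh1-FLAG replicate 3. It was 183 with bins of 1000 bp, of which fewer exist, 1310 with a minimum log2 fold change of 0.5 and 52 with a minimum of 2. The CLB2 cluster count of 14 was then 8, 22 and 2 in the same order, 10 in the bin holding the start codon, and 13 to 16 in the other alternatives. Depleted bins numbered 0 in the main comparison, 2 with the single middle window of each bin, 22 with a minimum of 0.5, 1 with the replicate block, and 0 to 3 with each library left out, highest without Fkh1-FLAG replicate 2. The replicate block left 429 enriched and 14 cluster genes. Deviations of libraries with the same replicate number correlated at 0.0251, -0.00137 and -0.0131, and other pairs at -0.0275 to 0.0279. No pairing by number was seen in the bins, which cannot exclude that such libraries were prepared together. The 28 bins with a smaller fold change with FLAG than with MYC numbered 22 to 39 with each library left out, 26 with TMM normalization, 29 with the replicate block and 26 without chromosome XV right of ADE2, an alternative chosen after seeing the data. Bins with a larger fold change with FLAG numbered 0 to 1, the bin inside NUM1 being called without Fkh1-FLAG replicate 2, Fkh1-MYC replicate 1 or fkh1-dbm-FLAG replicate 1. The causes were not tested. All 320 log2 fold changes of the 20 strongest regions under the alternatives stayed past the threshold, and of 576 at the cluster genes, FKH1 and TRP1, 553 kept their side of the threshold, 12 lost it, 11 gained it and 0 reversed. The list values were less stable, since 48 of 221 list medians moved by more than the spread between libraries, 39 of 228 counts of enriched members in the lists other than the CLB2 cluster moved by more than 1.5 times, and 25 of 448 dbm-RN values moved by more than the spread. The count of 1 enriched gene among the pre-replicative complex and among glycolysis genes was 0 without Fkh1-FLAG replicate 3 and without fkh1-dbm-FLAG replicate 2, and that of glycolysis was 2 without Fkh1-FLAG replicate 1 and without fkh1-dbm-FLAG replicate 3. The motif alternatives were not run, for want of a genome sequence. Each allele rests on 3 libraries.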

Other observations

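Genes of a kinesin and its partners were enriched together, and they are named here after their values were seen. KAR3, a minus-end kinesin, was enriched together with both of its partners, VIK1 and CIK1, at log2 fold changes of 1.07, 2.21 and 1.84. The bin of KAR3 is shared with RRP15 and that of CIK1 with VTI1, and the windows cannot say which gene a site serves. VIK1 had 2.72, 2.67 and 2.93 times background in Fkh1-FLAG, against 0.781, 0.582 and 0.649 in fkh1-dbm-FLAG. CIK1 had 3.22, 3.75 and 3.93 in Fkh1-FLAG, against 1.18, 1.17 and 1.08 in fkh1-dbm-FLAG. Of the other kinesin genes KIP2 was enriched at 1.65, while KIP1 at 0.68, CIN8 at 0.87 and KIP3 at 0.60 were higher in Fkh1-FLAG but not called. Of the tubulin genes TUB2 was at 0.79, TUB3 at 0.19 and TUB1 at -0.09.

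Some glycolytic promoters were lower in the mutant than in the untagged strain. Of 16 glycolysis genes 8 were lower and 0 higher in fkh1-dbm-FLAG at an adjusted p below 0.05 in edgeR, where 6.45% of all protein-coding genes were lower, with a median log2 fold change of -0.37, while TDH1 was at 0.10 and PGK1 at 0.04. The following were chosen after their values were seen. PDC1, which encodes pyruvate decarboxylase, had 2.07, 2.69 and 2.89 in Fkh1-FLAG, against 1.41, 1.24 and 1.40 in fkh1-dbm-FLAG and 3.34, 2.59 and 2.70 in untagged anti-FLAG. CDC19, the pyruvate kinase gene, had 2.0, 2.39 and 2.57 in Fkh1-FLAG, against 1.36, 1.53 and 1.39 in fkh1-dbm-FLAG and 2.85, 2.37 and 3.07 in untagged anti-FLAG. ENO2, an enolase gene, had 1.45, 1.74 and 1.64 in Fkh1-FLAG, against 1.71, 1.46 and 1.34 in fkh1-dbm-FLAG and 2.96, 2.28 and 2.78 in untagged anti-FLAG. At all 3 genes the mutant lay below the untagged strain in every library.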
